A study of Mus musculus with 14 samples.

Results

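Spectrins, ankyrins and plakins are very long proteins of the membrane skeleton and of the links between actin, microtubules and intermediate filaments. Their genes were followed in the cerebral cortex of Fmr1 knock-out (KO) mice at 2 levels, RNA and ribosome footprints. The members were taken by name from the first column of the gene count table: the spectrins Sptan1, Sptbn1 and Sptb, the ankyrins Ank1, Ank2 and Ank3, and the plakins Dst, Macf1 and Plec. All 9 names were found, out of 23412 genes in the table, and all 9 passed the filter on low counts in both assays.

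Ribosome profiling counts the short mRNA fragments that ribosomes protect from nuclease, called footprints. Control mice were labelled Rpl22flox/flox;CamKCre+, and KO mice Fmr1X-Y; Rpl22flox/flox;CamKCre+. Both groups therefore carried the floxed Rpl22 allele and the CamK-driven Cre, which is meant to tag ribosomes in CamKII-expressing neurons. The protocols name no immunoprecipitation of tagged ribosomes, and the labels used here give no age. For RNA-seq the controls were mice 1, 3, 6 and 8, and mice 2, 4, 5 and 7 were KO. For footprints the controls were mice 1, 3 and 9, and mice 2, 4 and 10 were KO. The series title places the study in the field of translation elongation in the Fmr1 KO brain.

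Spectrin is a long flexible tetramer of alpha and beta subunits that crosslinks short actin filaments under the plasma membrane, and in axons it forms a regular ring lattice. Ankyrins bind beta spectrin on one side and ion channels or adhesion proteins on the other, and so hold these proteins at the axon initial segment and the nodes of Ranvier. Plakins are giant linkers with spectrin-like repeats that tie actin to microtubules or to intermediate filaments. FMRP, the protein of Fmr1, binds RNA and polysomes, and long neuronal mRNAs are well represented among the RNAs it is known to bind.

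Depth ran from 8847547 to 11371851 counts in the RNA libraries and from 4124065 to 6033030 in the footprint libraries. Levels are in CPM, counts scaled to a common library size. Fmr1 RNA lay at 71.4 to 90.0 CPM in controls and 18.1 to 23.4 CPM in KO mice. Its footprints lay at 111 to 115 CPM against 5.84 to 8.56 CPM, as the labels have it. The RNA libraries of KO mice 2, 4 and 7 were close to each other, with a reduced chi-square of the counts between 1.18 and 1.32 for each pair, where 1 would be counting noise alone. Other RNA pairs of one genotype lay between 1.99 and 11.8, the lowest being control mice 1 and 3. Footprint pairs of one genotype lay between 1.15 and 1.42. Where libraries of either assay are this close, the p-values measure a spread that may be partly technical. This limit applies to the p-values from the footprint libraries alone as well as to those from RNA.

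Footprints of all 9 genes fell in the KO, by between 15.7% and 40.7%, and the RNA of none passed the test. A gene is called here when its adjusted p-value from edgeR's two-sided quasi-likelihood F test is under 0.05. The background of such calls in footprints was 13.6% of 12158 genes lower and 11.9% higher. The median log2 fold change in footprints was -0.46 over the 9 genes and 0.0055 over all genes tested. In every one of the 9, all 3 KO libraries lay below all 3 control libraries, which held for 19.2% of all genes tested. In RNA 0 of 9 were called and 1, Sptb, had an unadjusted p under 0.05. Of 13507 genes 7.41% were called, 3.53% higher and 3.88% lower, so 0 of 9 does not set these genes apart. DESeq2 on the same RNA counts called 1 of 9, Sptb again. The cortex was measured in bulk, so fewer cells of a type and less RNA per cell cannot be told apart.

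**Figure D1:**
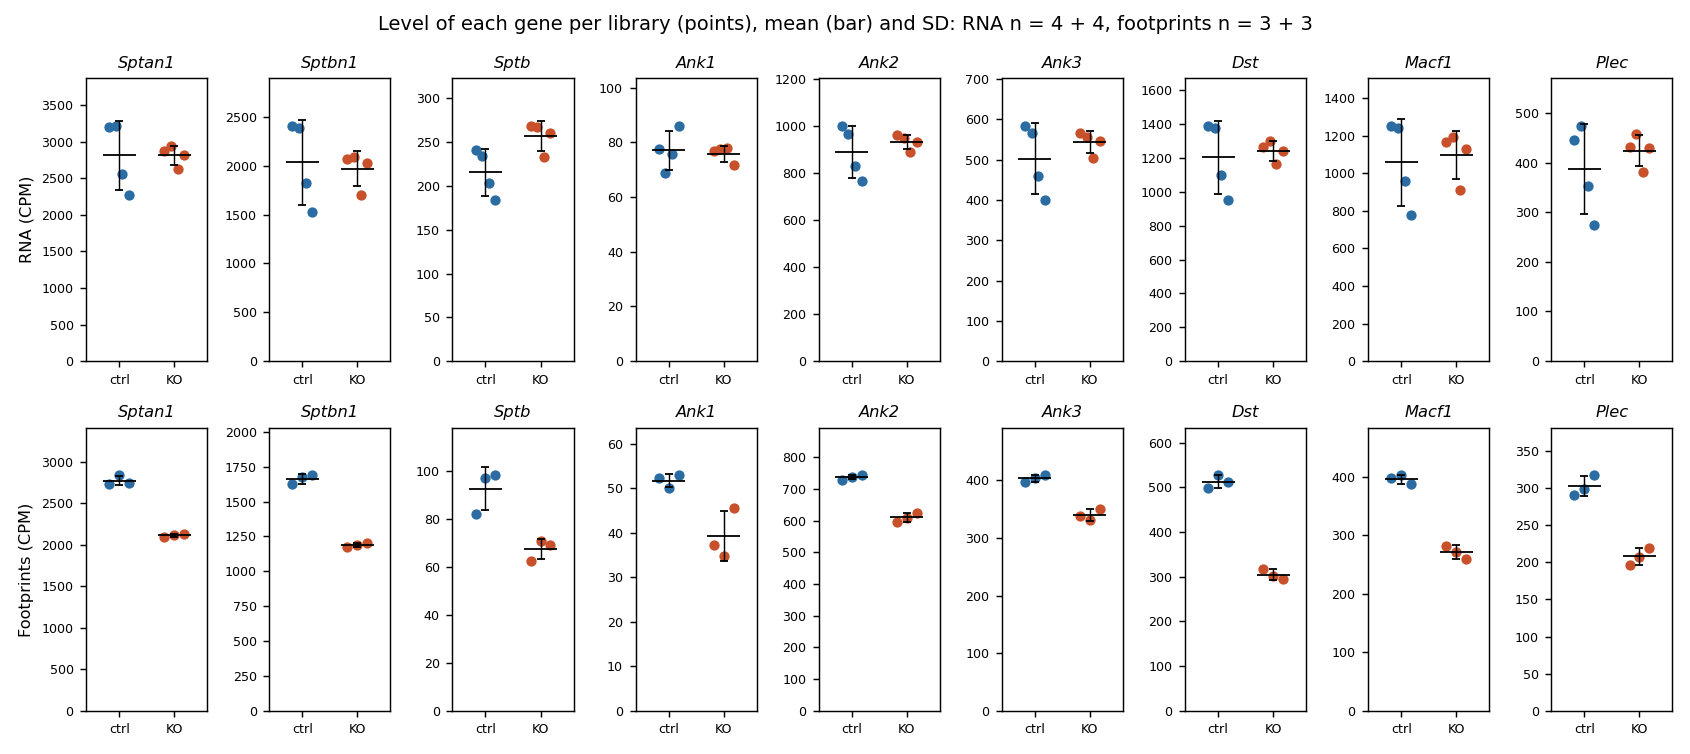
Level of each gene in CPM (linear axes from 0) in every RNA library (upper row) and footprint library (lower row), with the mean as a bar and the SD as an error bar. Control and KO points overlap in RNA for all 9 genes and are separate in footprints for all 9.

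Sptan1 encodes alpha-II spectrin, the alpha subunit of the brain, which pairs with each of the beta subunits. Its footprints stood at 2731, 2837 and 2748 CPM in control mice 1, 3 and 9 and at 2091, 2123 and 2128 CPM in KO mice 2, 4 and 10. The KO libraries were close together and 76.3% of the control mean. The log2 fold change was -0.39 ± 0.020 (SE, adjusted p = 2.84e-32). Sptan1 RNA was at 3205, 3220, 2553 and 2271 CPM in control mice 1, 3, 6 and 8 and at 2870, 2934, 2629 and 2823 CPM in KO mice 2, 4, 5 and 7. The KO values lay inside the control range, and the log2 fold change stood at 0.0010 ± 0.097 (SE, adjusted p = 0.996).

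Sptbn1 encodes beta-II spectrin, the main beta subunit of the axon shaft. Its footprints were at 1623, 1675 and 1688 CPM in the controls and 1172, 1186 and 1205 CPM in the KO, for a log2 difference of -0.49 ± 0.022 (SE, adjusted p = 1.35e-35). Its RNA was at 2410, 2382, 1822 and 1522 CPM in the controls and 2068, 2091, 1700 and 2024 CPM in the KO. The groups overlapped in RNA, and the log2 fold change was -0.046 ± 0.12 (SE, adjusted p = 0.861).

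Sptb, which encodes beta-I spectrin, the beta subunit of red blood cells that neurons also make, had its RNA and footprint values on opposite sides of 0. Its RNA was at 241, 234, 203 and 184 CPM in the controls and 269, 267, 233 and 260 CPM in the KO, for a log2 difference of 0.25 ± 0.081 (SE, adjusted p = 0.0689). KO mouse 5 was the only KO library below the highest control. Footprints of Sptb were at 82.3, 97.4 and 98.4 CPM in the controls and at 62.8, 70.9 and 69.3 CPM in the KO. This was a fall, and the log2 fold change stood at -0.46 ± 0.069 (adjusted p = 3.88e-08). The RNA value was positive under all 17 alternatives tried and was called under 6 of them. These were the title prefix as a block (0.26 ± 0.064, adjusted p = 0.0281), DESeq2 (adjusted p = 0.0469), the exon columns (adjusted p = 0.0392), mice 1 to 4 only (adjusted p = 0.00262), and the fits without control mouse 1 (adjusted p = 0.0488) and without KO mouse 5 (adjusted p = 0.0325). With the similar RNA libraries summed it was 0.26 ± 0.11 (adjusted p = 0.399).

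Sptb and Ank1 are also red blood cell genes. Summed over 6 listed red blood cell genes, of which Hba-a1, Hba-a2 and Hbb-b1 were at 0 in every library, footprints were at 17.4 to 19.6 CPM in the controls and 13.9 to 15.9 CPM in the KO. RNA of the same genes was at 146 to 426 CPM and 115 to 246 CPM. The part of red blood cells in the values of Sptb and Ank1 was not tested.

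In footprints the log2 fold changes of the 3 ankyrins ran from -0.39 to -0.25. Ank2 encodes ankyrin-B, the ankyrin of the axon shaft, with giant neuronal forms. Footprints of Ank2 were at 730, 739 and 744 CPM in the controls and 597, 610 and 624 CPM in the KO, for a log2 difference of -0.27 ± 0.027 (SE, adjusted p = 9.21e-15). Ank3 encodes ankyrin-G, the organiser of the axon initial segment. Ank3 footprints were at 397, 404 and 409 CPM against 338, 331 and 351 CPM, for a log2 difference of -0.25 ± 0.033 (SE, adjusted p = 1.66e-09). Both gaps were small, 17.3% and 15.7%, and wide against a spread of at most 13.4 CPM (SD, n = 3) in any of these groups.

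Ank1 encodes ankyrin-R, the ankyrin of red blood cells and of some neurons, and had the lowest footprint counts of the 9, between 155 and 298 footprints per library. Its footprints were at 52.3, 50.0 and 52.9 CPM in the controls and 37.3, 34.8 and 45.6 CPM in the KO, for a log2 difference of -0.39 ± 0.090 (SE, adjusted p = 0.000328). KO mouse 10 was higher than the other KO mice and still below every control. None of the 3 ankyrins was called in RNA. Ank1 RNA was at 68.8 to 86.2 CPM in the controls and 71.6 to 77.8 CPM in the KO (log2 fold change -0.023 ± 0.070, adjusted p = 0.879). Ank2 RNA was at 764 to 1001 CPM and 888 to 959 CPM (0.067 ± 0.077, adjusted p = 0.645). Ank3 RNA was at 399 to 585 CPM and 503 to 567 CPM (0.11 ± 0.098, adjusted p = 0.527). The KO range lay inside the control range for all 3.

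Dst had the largest footprint fall of the 9. It encodes dystonin, a plakin that links actin, microtubules and intermediate filaments and whose loss causes sensory neuron degeneration in mice. Footprints of Dst were at 499, 527 and 511 CPM in the controls and 318, 301 and 295 CPM in the KO, or 59.4% of the control mean. The log2 fold change was -0.75 ± 0.033 (SE, adjusted p = 6.49e-37), the rank 143 from the lowest among 12158 genes. Dst RNA was at 1392, 1376, 1100 and 949 CPM in the controls and 1267, 1298, 1163 and 1239 CPM in the KO. All KO libraries lay within the control range, and the log2 fold change stood at 0.044 ± 0.10 (SE, adjusted p = 0.835).

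Macf1 encodes the actin and microtubule crosslinker MACF1, the nearest relative of dystonin. Macf1 footprints stood at 398, 403 and 387 CPM in the controls and 282, 271 and 259 CPM in the KO, for a log2 difference of -0.55 ± 0.035 (SE, adjusted p = 3.85e-25). Plec encodes plectin, the crosslinker of intermediate filaments. Plec footprints stood at 291, 299 and 317 CPM against 197, 208 and 220 CPM, for a log2 difference of -0.54 ± 0.040 (SE, adjusted p = 2.52e-21). The KO means of Macf1 and Plec were 68.4% and 68.8% of the control means. Macf1 RNA was at 777 to 1255 CPM in the controls and 911 to 1194 CPM in the KO (log2 fold change 0.056 ± 0.13, adjusted p = 0.839). Plec RNA was at 275 to 475 CPM and 381 to 457 CPM (0.13 ± 0.13, adjusted p = 0.577).

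Ordered by footprint change, the genes ran from Dst through Macf1, Plec, Sptbn1, Sptb, Ank1, Sptan1 and Ank2 to Ank3. Of the 8 steps between neighbours only Dst to Macf1 (0.21 on the log2 scale) and Sptan1 to Ank2 (0.12) exceeded 2 combined standard errors. Within each of the 3 pairs of footprint libraries that share a title prefix, all 9 genes were lower in the KO. These differences ran from -0.81 to -0.65 for Dst, from -0.50 to -0.47 for Sptbn1 and from -0.29 to -0.22 for Ank3. The widest range was that of Ank1, -0.52 to -0.22. Leaving out any 1 footprint library left 9 of 9 called. In one fit over all 14 libraries, where 13.9% of genes were called, 8 of 9 were called and Ank3 was not (adjusted p = 0.0929). The adjusted p of Dst was 3.18e-05 in that fit.

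**Figure D2:**
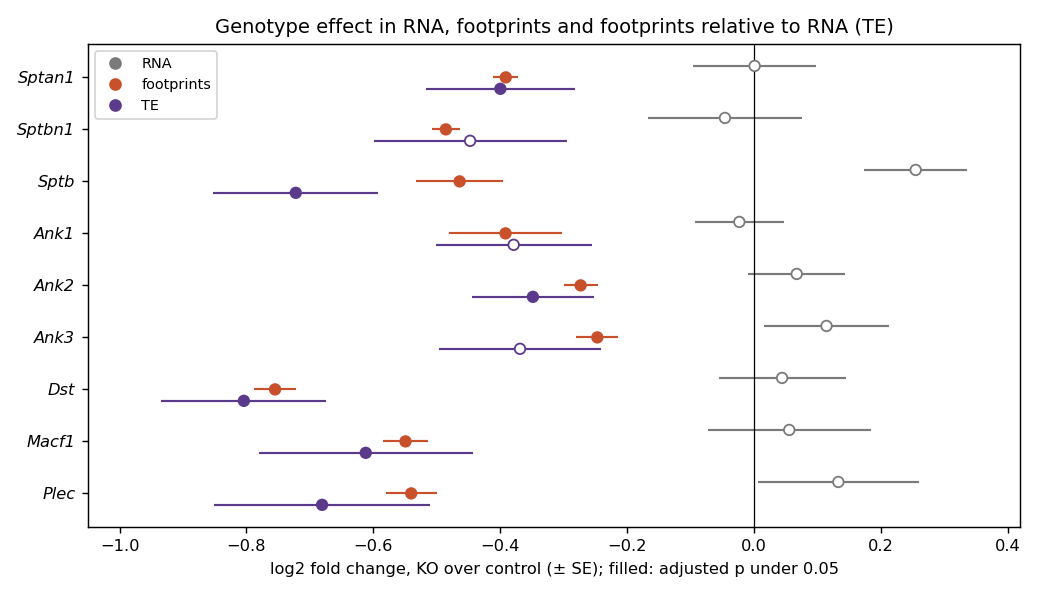
Log2 fold change (KO over control) with its standard error in RNA (grey), footprints (orange) and footprints relative to RNA (TE, purple), filled where the adjusted p is under 0.05. RNA values spread around 0 from -0.046 to 0.25, while footprint values run from -0.75 to -0.25 and TE values from -0.80 to -0.35.

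RNA of most of these genes spread widely among the control libraries. Against each gene's own mean over the 8 libraries, the 9 genes had a median log2 deviation of 0.17 in control mouse 1 and 0.18 in control mouse 3. It was -0.14 in control mouse 6 and -0.36 in control mouse 8. KO mice 2, 4 and 7 were at 0.080, 0.096 and 0.040 and KO mouse 5 at -0.062. In control mouse 8 Ank1 was the 1 gene above its own mean, and in control mouse 3 Ank1 and Sptb were the 2 below theirs. Over all genes the median deviation of each library was at most 0.0033 in size.

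**Figure D3:**
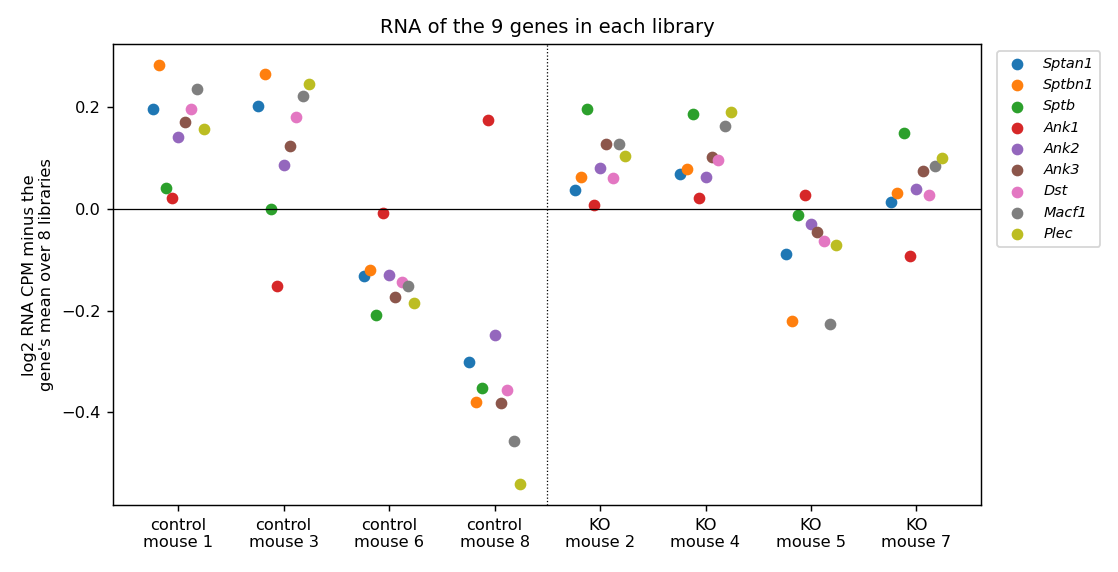
RNA of each gene in each of the 8 libraries, as log2 CPM minus the gene's mean over the libraries. Control mice 1 and 3 lie mostly above 0 and control mice 6 and 8 below it, with medians of 0.17, 0.18, -0.14 and -0.36, and Ank1 apart from the rest in control mouse 8.

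The RNA libraries carry title prefixes that group mice 1 with 2, 3 with 4, and 5 to 8. Within the first and second groups the KO minus control difference was negative for 8 and 7 of the 9 genes, and in the group of mice 5 to 8 it was positive for 8. Sptan1 was at -0.16, -0.13 and 0.18 on the log2 scale, Sptbn1 at -0.22, -0.19 and 0.16, and Dst at -0.14, -0.084 and 0.23. Sptb was positive in each, at 0.16, 0.19 and 0.35. A fit on mice 1 to 4 only called 4 of 9 in RNA, where 24.1% of 13591 genes were called. These were Sptan1 at -0.14 (adjusted p = 0.000234), Sptbn1 at -0.20 (adjusted p = 5.32e-06), Dst at -0.10 (adjusted p = 0.0112) and Sptb at 0.18 (adjusted p = 0.00262). On mice 5 to 8 only, 0 of 9 were called, where 0.652% of 13488 genes were, so this count says nothing about the 9 genes. Apart from Sptb, no gene had RNA differences of 1 sign in all 3 groups of libraries.

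Footprints per RNA of a gene, called translational efficiency (TE), were tested as the interaction of genotype and assay over all 14 libraries. All 9 values were below 0 with an unadjusted p under 0.05, and 6 of 9 were called lower, against 4.41% of 12145 genes lower and 3.4% higher. The median was -0.45 over the 9 genes and -0.011 over all genes. Dst was at -0.80 ± 0.13 (SE, adjusted p = 0.000429), Sptb at -0.72 ± 0.13 (adjusted p = 0.00127), Plec at -0.68 ± 0.17 (adjusted p = 0.0153) and Macf1 at -0.61 ± 0.17 (adjusted p = 0.0284). Sptan1 at -0.40 ± 0.12 (adjusted p = 0.0397) and Ank2 at -0.35 ± 0.097 (adjusted p = 0.0293) were also called. Sptbn1 at -0.45 ± 0.15 (adjusted p = 0.0729), Ank1 at -0.38 ± 0.12 (adjusted p = 0.0607) and Ank3 at -0.37 ± 0.13 (adjusted p = 0.0772) were not. No step between neighbours in this order exceeded 2 combined standard errors.

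Mice 1 to 4 gave both assays, so the TE test was also fitted with the mouse number as a replicate block. It called 9 of 9, with 14.9% of all genes called. Sptbn1 was then at -0.29 (adjusted p = 1.00e-06), Ank1 at -0.60 (adjusted p = 0.000160) and Ank3 at -0.24 (adjusted p = 0.00209). The block compares the assays within a mouse, so only mice 1 to 4 bear on its estimates. A fit on those mice alone gave nearly the same values, -0.29, -0.59 and -0.24, and is therefore not a separate result. The RNA libraries of those mice were close to each other within a genotype. With the similar RNA libraries summed, where 4.77% of genes were called, 6 of 9 were called and these 3 were not (adjusted p = 0.0870, 0.131 and 0.0836). Dst and Sptb were called under all 19 alternatives tried for TE, where the block and the fit on mice 1 to 4 are counted separately. Leaving out 1 mouse ended some calls of Sptan1, Ank2, Macf1 and Plec. Without mouse 2 their adjusted p-values were 0.158, 0.144, 0.101 and 0.0948, and without mouse 4 they were 0.145, 0.116, 0.118 and 0.0822. Without mouse 9 they were 0.0787, 0.0703, 0.0560 and 0.0507. The calls of Sptan1, Ank2 and Macf1 were also lost without mouse 6 (0.0846, 0.0643 and 0.0605) and mouse 10 (0.0870, 0.0570 and 0.0834), and Sptan1 without mouse 7 (0.0629). Sptbn1 and Ank3 were gained without mouse 1 (0.0399 and 0.0373) and mouse 5 (0.0277 and 0.0464), Sptbn1 and Ank1 without mouse 8 (0.0400 and 0.0133), and Ank1 without mouse 10 (0.0216).

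The same mice showed the ratio of footprint CPM to RNA CPM directly, with no test on 2 mice a genotype. Dst was at 0.358 and 0.383 in control mice 1 and 3 and at 0.251 and 0.232 in KO mice 2 and 4. Macf1 was at 0.317 and 0.324 against 0.242 and 0.227, and Sptb at 0.341 and 0.416 against 0.233 and 0.266. Plec was at 0.652 and 0.630 against 0.457 and 0.455, and Ank1 at 0.674 and 0.727 against 0.486 and 0.449. Sptan1, Sptbn1, Ank2 and Ank3 lay between 0.673 and 0.881 in the controls, a range that also holds the control values of Ank1, and between 0.567 and 0.729 in the KO. For all 9 genes both KO mice lay below both control mice, which held for 27.4% of 12145 genes.

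**Figure D4:**
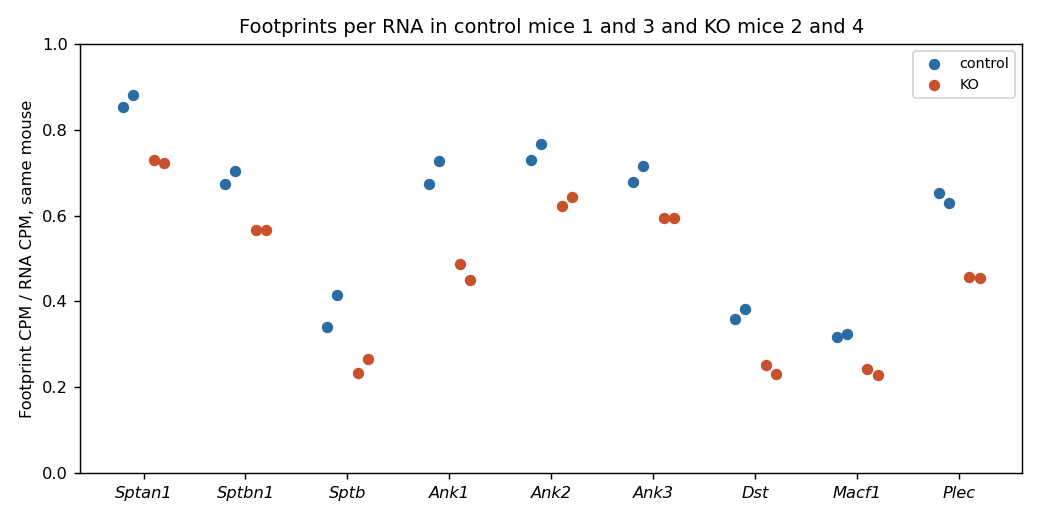
Ratio of footprint CPM to RNA CPM for each gene in the mice measured in both assays, control mice 1 and 3 (blue) and KO mice 2 and 4 (orange). Each KO point lies below both control points of its gene, as in 27.4% of all genes tested, and Dst, Macf1 and Sptb have the lowest ratios in the controls, 0.317 to 0.416.

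Macf1, Dst and Sptb had low ratios of footprints to RNA in the controls as well. The region of each gene counted in the RNA columns is not given in the sources used here, and where it differs from that of the footprints, ratios of different genes are not on 1 scale. Taking the ratio of the control means, the percentile among 12145 genes was 9.89 for Macf1, 13.1 for Dst and 13.4 for Sptb. It was 31.4 for Ank1, between 40.1 and 43.7 for Plec, Ank3, Sptbn1 and Ank2, and 55.3 for Sptan1. The median ratio over all genes was 0.913 in the controls and 0.916 in the KO.

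Ratios of counts between members need no library scaling, and 11 pairs were compared in each assay, 22 exact two-sided permutation tests in all. The pairs were chosen with the fold changes known. Dst over Macf1 in footprints was 1.25 to 1.32 in the controls and 1.11 to 1.14 in the KO, without overlap (exact permutation p = 0.1, adjusted p = 0.244). Sptan1 over Sptbn1 was 1.63 to 1.69 and 1.77 to 1.79, also without overlap (exact permutation p = 0.1, adjusted p = 0.244). With 3 against 3 libraries 0.1 is the smallest p the design allows. In RNA, Sptan1 over Sptb was 12.4 to 13.7 in the controls and 10.7 to 11.3 in the KO (exact permutation p = 0.0286, the smallest for 4 against 4, adjusted p = 0.210). Sptbn1 over Sptb was 8.28 to 10.2 and 7.31 to 7.83 in RNA (exact permutation p = 0.0286, adjusted p = 0.210). Of the pairs that cross families, Ank3 over Dst was 0.767 to 0.800 and 1.06 to 1.19 in footprints (exact permutation p = 0.1, adjusted p = 0.244) and 0.411 to 0.420 and 0.429 to 0.448 in RNA (exact permutation p = 0.0286, adjusted p = 0.210). Ank2 over Sptbn1 in footprints was 0.440 to 0.450 and 0.509 to 0.518 (exact permutation p = 0.1, adjusted p = 0.244). The groups of the other 15 comparisons overlapped. No test passed after adjustment, and none could have, since the smallest p-values these group sizes allow are too large for 22 tests. The adjusted p-values therefore decide nothing about these ratios. How often the groups separate for other pairs of genes is not given here.

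Each RNA library had a further column of counts whose header ends in exon. The share of that exon count found in the main RNA column was near 95% for Sptan1 and Dst, 94% for Macf1, 91% for Plec and 60% for Ank2. It overlapped between genotypes for 8 of the 9 genes. For Ank3 it was 73.5%, 69.8%, 72.2% and 73.9% in control mice 1, 3, 6 and 8 and 75.2%, 74.5%, 76.9% and 75.2% in KO mice 2, 4, 5 and 7. All KO libraries thus lay above all controls, which held for 3.81% of 13478 genes. Ank3 was singled out after its values were seen.

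The partners of these proteins were described from lists, and their counts are read against the background shares above. Sptbn4, the beta-IV spectrin of the axon initial segment, fell in footprints from 142 ± 2.90 to 117 ± 7.59 CPM (SD, n = 3). Its log2 fold change was -0.27 ± 0.053 (SE, adjusted p = 1.98e-05), and its TE was at -0.49 ± 0.13 (adjusted p = 0.0191).

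At the junction of spectrin and actin, 6 of 14 genes fell in footprints and 1 rose, with a median of -0.042. Epb4.1l1, which joins spectrin and actin to membrane proteins, was at -0.43 ± 0.038 (log2 fold change ± SE, adjusted p = 5.35e-17), and it was the 1 gene of the list called lower in TE (-0.60 ± 0.11, adjusted p = 0.00183). Epb4.1l2 fell by 0.21 ± 0.046 (adjusted p = 0.000176) in footprints and by 0.26 ± 0.066 (adjusted p = 0.0292) in RNA. Actb, the beta-actin gene, rose by 0.096 ± 0.021 (adjusted p = 0.000133) in footprints. In RNA 3 of 15 were called lower and 0 higher, the largest fall being that of the tropomyosin gene Tpm3, -0.39 ± 0.063 (adjusted p = 0.00264). Tpm3 was also the 1 gene of the list called higher in TE, 0.38 ± 0.11 (adjusted p = 0.0322).

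Of 13 genes for membrane proteins that ankyrins hold in place, 7 fell in footprints and 0 rose, and the median was -0.12. The adhesion genes Chl1 at -0.39 ± 0.031 (adjusted p = 9.44e-20) and Nfasc at -0.32 ± 0.033 (adjusted p = 5.82e-14) were the lowest. In TE 3 of 13 were called lower and 0 higher, with the adhesion gene Nrcam at -0.29 ± 0.065 (adjusted p = 0.00774). In RNA 0 of 13 were called.

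Of 8 other plakins and giant linkers 5 were tested. In footprints 3 fell and 1 rose, with a median of -0.24. The nuclear envelope linker Syne2 was at -0.31 ± 0.11 (adjusted p = 0.0231) and utrophin (Utrn) at -0.24 ± 0.068 (adjusted p = 0.00493). Dystrophin (Dmd), a relative of utrophin, rose by 0.22 ± 0.069 (adjusted p = 0.0126), so a giant linker gene could also stand on the other side. Utrn was the 1 gene called in TE, -0.29 ± 0.090 (adjusted p = 0.0489), and 0 of 5 were called in RNA.

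Among 9 microtubule end partners 4 fell and 2 rose in footprints, with a median of -0.11. The minus-end binders Camsap1, -0.32 ± 0.070 (adjusted p = 0.000138), and Camsap3, -0.31 ± 0.090 (adjusted p = 0.00548), fell most, and the plus-end binders Mapre2, 0.095 ± 0.035 (adjusted p = 0.0355), and Mapre3, 0.088 ± 0.033 (adjusted p = 0.0411), rose. In TE Camsap1 was called lower (-0.35 ± 0.088, adjusted p = 0.0165) and Mapre1 higher (0.27 ± 0.079, adjusted p = 0.0415). In RNA 1 was called higher and 2 lower: Mapre3 at 0.31 ± 0.086 (adjusted p = 0.0399), Camsap2 at -0.19 ± 0.050 (adjusted p = 0.0361) and Mapre1 at -0.18 ± 0.052 (adjusted p = 0.0466).

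Of 6 intermediate filament genes, the partners of plectin, 4 fell in footprints, with a median of -0.21. The astrocyte filament gene Gfap fell by 0.34 ± 0.046 (adjusted p = 2.07e-09) on the log2 scale in footprints and by 0.47 ± 0.051 (adjusted p = 0.000321) in RNA. The neurofilament gene Nefm fell by 0.28 ± 0.027 (adjusted p = 4.39e-15) in footprints. Ina, the alpha-internexin gene, rose in RNA by 0.23 ± 0.051 (adjusted p = 0.0169) and was the 1 gene of the list called in TE, -0.29 ± 0.081 (adjusted p = 0.0278).

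**Figure D5:**
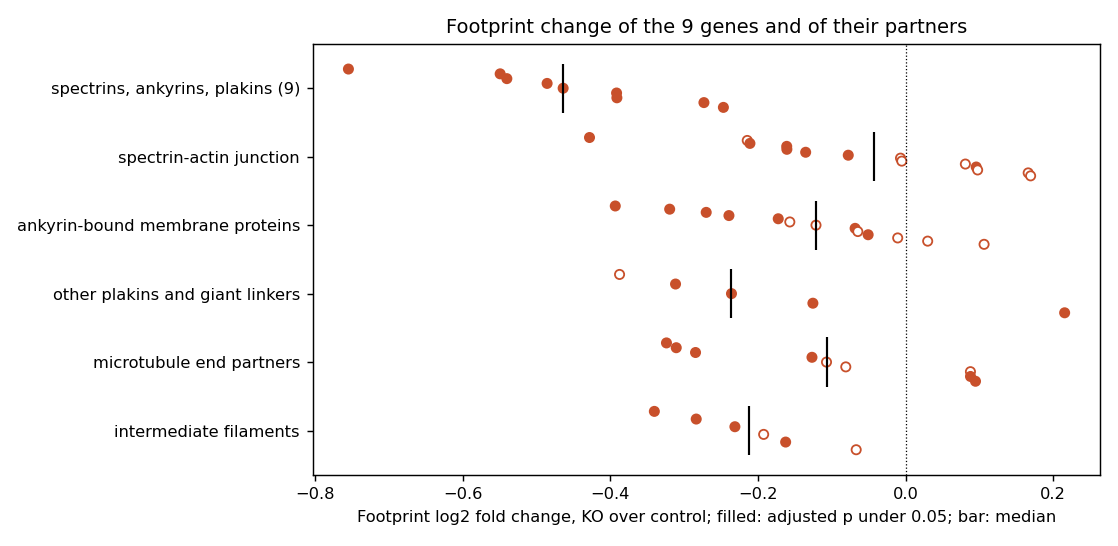
Footprint log2 fold change (KO over control) of the 9 genes and of the tested genes of 5 partner lists, filled where the adjusted p is under 0.05, with the list median as a bar. All 9 spectrin, ankyrin and plakin genes lie below 0 with a median of -0.46, and the 5 lists drawn have medians from -0.24 to -0.042; Sptbn4, at -0.27, is not drawn.

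Markers of cell types were measured beside these values. Excitatory neuron markers (7 genes) summed to 2531 to 2804 CPM of RNA in the controls and 3172 to 3442 CPM in the KO, and to 5602 to 5745 and 5400 to 5659 CPM of footprints. Camk2a had the largest difference in CPM among them, at 467 and 786 CPM of RNA and 3162 and 2866 CPM of footprints (means). Of the 7 excitatory markers, 3 were called higher in footprints, Slc17a7, Neurod6 and Nrgn, and Camk2a alone was called lower. Inhibitory neuron markers (7 genes) summed to 822 to 855 and 827 to 962 CPM of RNA and to 1628 to 1675 and 1702 to 1732 CPM of footprints, where 3 were called higher and 1 lower. Oligodendrocyte markers (7 genes) summed to 5077 to 5585 and 4481 to 4817 CPM of RNA and to 8672 to 8829 and 8509 to 8547 CPM of footprints, where 2 were called higher and 3 lower. Astrocyte markers (6 genes) stood at 2924 to 3148 and 3071 to 3791 CPM of RNA and 4595 to 4654 and 4643 to 4681 CPM of footprints, where 1 was called higher and 2 lower. Footprints of endothelial markers (6 genes) stood at 219 to 224 and 220 to 236 CPM, those of microglial markers (6 genes) at 390 to 414 and 399 to 409 CPM, and those of striatal markers (6 genes) at 657 to 681 and 641 to 685 CPM. RNA of the endothelial markers was at 209, 208, 148 and 112 CPM in control mice 1, 3, 6 and 8. It was at 205, 202, 129 and 200 CPM in KO mice 2, 4, 5 and 7. Control mice 6 and 8 and KO mouse 5 were lowest, and in these the median RNA deviation of the 9 genes was below 0. No marker of these 7 classes was at 0 in any library. Choroid plexus markers (5 genes) summed to 8.56 to 277 CPM of RNA in the controls and 4.70 to 115 CPM in the KO. The 277 CPM was control mouse 8 and the 115 CPM KO mouse 5, and no other RNA library exceeded 17.0 CPM. Footprints of these markers summed to 5.90 to 10.3 and 4.03 to 5.60 CPM. Ttr, the transthyretin gene, was called lower there in footprints (-1.74 ± 0.41, adjusted p = 0.000518), and Aqp1, Folr1 and Otx2 were at 0 in some footprint libraries. The part of these differences in the values of the 9 genes was not tested.

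The genes most like the 9 were found by the root mean square difference between a gene's log2 CPM profile over the 14 libraries, each assay centred on its own mean, and the mean profile of the 9. Among 8914 genes of at least 10 CPM in each assay, the nearest were Eif4g3 (0.042), Eif4g1 (0.051), Son (0.057), Rbm25 (0.059) and Apc2 (0.061). The other genes had a median of 0.226, and the 9 themselves ran from 0.039 for Sptan1 to 0.18 for Ank1. The 9 are part of the mean profile they are set against, which brings them nearer to it. Eif4g1 and Eif4g3 encode scaffold proteins of translation initiation, Son and Rbm25 splicing factors, and Apc2 a microtubule-binding relative of APC. Their footprint log2 fold changes were -0.40 for Eif4g3, -0.46 for Eif4g1, -0.45 for Son and -0.37 for both Rbm25 and Apc2.

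The share of calls in each direction over all genes depended on the library scaling. With plain library sizes 66.3% of the called genes were higher in footprints and 68.2% in TE, against 46.7% and 43.5% with TMM scaling, and the footprint median over all genes moved from 0.0055 to 0.065. All 9 genes were still called lower in footprints and were below 0 in TE, where Sptan1 (adjusted p = 0.0802) and Ank2 (adjusted p = 0.0701) were no longer called.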

How the data were processed

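RNA-seq and ribosome profiling of mouse cortex were analysed from 1 table of whole-number counts per gene, which the authors deposited without normalization, per the file headers and values. The submitters' processing notes name Bowtie2, STAR 2.5, featureCounts, Subread 1.4.6, mm9 and mm10. Their roles, the annotation and the strand setting are not given in the sources used here, so no coordinates are printed. RNA libraries kept strand and had ribosomal RNA removed, and footprints came from monosomes after RNase I digestion, per the labels' protocols. RNA columns without a suffix were used; they held 52.9% to 56.7% of the total of the columns ending in exon, which served as an alternative. The table held no other columns of values, and 2849 genes had no value in the main columns.

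Genotype and mouse came from the labels. RNA (8 libraries) and footprints (6) were tested with edgeR 4.0.16 (R 4.3.3; TMM, filterByExpr at a minimum count of 10, quasi-likelihood F test, two-sided, Benjamini-Hochberg over all genes, threshold 0.05). TE was the genotype by assay interaction over 14 libraries. Standard errors were derived from the F statistic, and CPM are TMM-scaled within an assay. Scripts were tested on simulated data. Alternatives were other scalings, no filter, DESeq2 1.42.0, title prefix as a block, fewer libraries, summed similar libraries, exon columns and one fit over both assays.

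Mice 1 to 4 gave both assays, per the labels, so their numbers pair libraries of the same animal; the correlation of their deviations from the group means over 12145 genes was 0.0031, 0.011, 0.033 and -0.014. The members, lists and tests were chosen with earlier results of these data known. Genes named were all 9 members, the 2 largest rises and 2 largest falls among the called genes of each partner list, and the 5 nearest profiles. Some genes that this rule names are not reported here. A background of long proteins and a comparison of protein sequences were also planned and not run, since no protein sequences were used here. Symbols were matched to the RefSeq mouse gene table (GRCm38.p6) for gene spans. Some listed genes were found under another symbol, such as Epb41l1 under Epb4.1l1 and Dmtn under Epb4.9. Counts between genes are not scaled for length, so levels of different genes are not ranked. Genes that share exons, sequence or repeats could share reads.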

Additional observations from a re-analysis of the deposited data

Results flagged for a closer look

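Groups of 4 RNA libraries were examined for a library far from the others, 18 groups of 1 gene and genotype, of which chance alone would mark about 1 in 20. In 2 of them the distance of 1 library to its nearest neighbour, divided by the whole range, exceeded Dixon's critical value for 4 values. Sptbn1 RNA in KO mouse 5 had a value of 0.8293, just past it, at 1700 CPM against 2024 to 2091 CPM in the other KO mice. Ank1 RNA in KO mouse 7 had a value of 0.835, at 71.6 CPM against 76.8 to 77.8 CPM.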

How the results depend on the processing

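The number of the 9 genes called in footprints was 9 under every alternative tried except one fit over all 14 libraries (8), and 9 without any 1 library. In RNA it was 0, and 1 (Sptb) with DESeq2, with the title prefix as a block and with the exon columns, 4 on mice 1 to 4 only, and 0 to 1 without 1 library. On mice 1 to 4 the RNA values of 7 of 9 genes changed sign. Sptan1 (-0.14) and Dst (-0.10) were then called, and Ank1 (0.083), Ank2 (-0.037), Ank3 (-0.026), Macf1 (-0.076) and Plec (-0.047) were not; the cause was not tested. In TE 6 were called, 4 with plain library sizes, 8 with DESeq2 or the title prefix as a block, 6 with similar RNA libraries summed, 9 on mice 1 to 4, and 2 to 8 without 1 mouse. With the mouse number as a replicate block 9 were called in TE, and the block ended none of the other 6 calls. The block estimates also rest on mice 1 to 4. All footprint and TE values of the 9 genes stayed below 0. Over all genes, RNA calls went from 1001 to 356 to 1763 without 1 library, 36 with similar libraries summed, 88 on mice 5 to 8 and 3273 on mice 1 to 4, where fewer samples were fitted. Footprint calls went from 3102 to 1821 with DESeq2 and 1684 in one fit over both assays. TE calls went from 949 to 419 to 1289 without 1 mouse, 579 with similar libraries summed, 1806 on mice 1 to 4 and 1810 with the block. Ank1 and Sptb, with 155 to 573 footprints per library, had the largest standard errors in footprints. Every other alternative listed was run.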

Other observations

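All 9 genes span long stretches of the genome in the RefSeq table, from 60.4 kb for Plec and 65.9 kb for Sptan1 through 130 kb for Sptb, 169 kb for Sptbn1 and 176 kb for Ank1 to 338 kb for Macf1, 401 kb for Dst, 494 kb for Ank3 and 579 kb for Ank2. This is the span with introns, not the length of the mRNA or protein, and within the 9 it did not run with the footprint change: Plec, the shortest, was at -0.54 and Ank2, the longest, at -0.27. Over all genes with a span (99.5%), the share called lower in footprints was 7.46% under 10 kb, 9.46% from 10 to 30 kb, 15.3% from 30 to 100 kb, 24.5% from 100 to 300 kb and 30.9% above 300 kb. The median footprint log2 fold change over these bins went from 0.049 to -0.11. In TE the shares called lower were 1.52%, 2.99%, 5.26% and 8.76% in the first 4 bins, and 50 of 499 genes above 300 kb. In RNA they were 6.3%, 3.31%, 2.47%, 3.29% and 7.31%, with no such order.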
